A study of Mus musculus with 8 samples.

Results

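Integrins and laminins formed a set of 37 genes, taken by gene symbol from the 26711 features of the count matrix, with no measured value in the rule, although the set was proposed with earlier results of these data known. The set held 18 integrin alpha subunits, 8 integrin beta subunits and 11 laminin chains. The cells were 102330 nuclei of the mouse primary visual cortex (V1) at postnatal day 21, in 20 cell types named by the authors and in 8 libraries, sequenced as single nuclei on the 10x 3′ droplet platform.

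Every mouse carried loxP-flanked alleles of Nr3c1, the gene of the glucocorticoid receptor (GR). At birth V1 was injected with an adeno-associated virus that expressed either Cre (GR-KO) or an inactive Cre deletion mutant (GR-Con, ΔCre), with a membrane EGFP, under the astrocyte promoter GfaABC1D. The mice were then reared in a normal light cycle (NR) or in darkness (DR). This gave 4 groups, GR-Con and GR-KO under each rearing condition, of 1 male and 1 female library each. Cre was aimed at astrocytes, and the nuclei were sorted as DRAQ5-positive and GFP-negative, so neither the sort nor the labels say which astrocytes had lost GR. In astrocytes the Cre feature had 86, 48, 57 and 43 UMIs in the 4 GR-KO libraries and 0 UMIs in each of the 4 GR-Con libraries, where a count of 0 allows up to 3 UMIs. The ΔCre feature did not separate the groups, with 44, 31, 38 and 26 UMIs in the GR-KO libraries and 35, 21, 24 and 34 UMIs in the GR-Con libraries. Nr3c1 itself was at 231 and 221 CPM (UMIs per 1000000 UMIs of that cell type and library) in NR GR-Con astrocytes and at 284 and 268 CPM in NR GR-KO astrocytes. In DR it was at 263 and 207 CPM in GR-Con and at 274 and 275 CPM in GR-KO. Nr3c1 counts were thus not lower in the GR-KO libraries, but the counted tags need not come from the loxP-flanked part of the gene, so they do not check the deletion.

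Libraries held 9517 to 15161 nuclei and 168632129 to 288774016 UMIs, and the median per nucleus ran from 14861 to 29223 UMIs. Depth went with group. The male and female NR GR-KO libraries had the highest medians, 22827.5 and 29223 UMIs, and the DR GR-KO libraries the lowest, 14928.5 and 14861 UMIs. Male and female GR-Con libraries had medians of 17759.5 and 15884 UMIs in NR and of 16968 and 20161 UMIs in DR. Both GR-KO libraries were thus deeper than both GR-Con libraries in NR and shallower in DR. Depth cannot be told apart from rearing within GR-KO, from genotype within NR or DR, or from the interaction of the 2. The part of depth in the comparisons was not tested. The summed markers of astrocytes, oligodendrocytes, oligodendrocyte precursors (OPCs), microglia, endothelial cells (Endo), smooth muscle cells with pericytes (SMC-Peri) and vascular leptomeningeal cells (VLMC) were each highest in the type of that name. Rare types were uneven. Microglia ran from 2 to 948 nuclei a library and reached the minimum of 10 nuclei in 5 libraries. DR GR-Con female held 5 Endo, 1 SMC-Peri and 3 VLMC nuclei and NR GR-Con male held 7 SMC-Peri nuclei. Chandelier cells (ChC) reached 10 nuclei in 3 libraries. Libraries under that minimum give no value for the type, and comparisons that need them were fitted without the type. Across libraries, 1220 barcode sequences recurred, in 2452 nuclei.

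Integrins are receptors made of 1 alpha and 1 beta subunit that span the plasma membrane and tie the extracellular matrix, or counter-receptors on other cells, to the actin cytoskeleton. The beta1 subunit joins many alpha subunits. Laminins are secreted heterotrimers of 1 alpha, 1 beta and 1 gamma chain that assemble the basement membrane, and in the cortex such membranes line the blood vessels and the pial surface, where they face astrocyte endfeet. Alpha subunits of the alphav type bind RGD-containing ligands and, with beta8, activate latent TGF-beta.

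Promoter sequence was available for 23 of the 37 genes, from RefSeq on GRCm38.p6. The 250 bases before the start site are shown for the 3 astrocyte genes on which the genotype comparison turns and for which a window was at hand (Itgav, Lama2, Lama5), and for Itga8, which turns the rearing comparison. Capitals mark AGAACA, a hexamer of the glucocorticoid receptor element, searched on both strands.
Itgav, chr2:83724147-83724396, plus strand: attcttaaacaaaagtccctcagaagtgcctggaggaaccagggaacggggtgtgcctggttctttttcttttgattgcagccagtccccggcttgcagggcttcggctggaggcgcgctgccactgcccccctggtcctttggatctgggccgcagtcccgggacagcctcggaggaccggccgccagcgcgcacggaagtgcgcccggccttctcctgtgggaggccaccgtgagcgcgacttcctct
Lama2, chr10:27616943-27617192, minus strand: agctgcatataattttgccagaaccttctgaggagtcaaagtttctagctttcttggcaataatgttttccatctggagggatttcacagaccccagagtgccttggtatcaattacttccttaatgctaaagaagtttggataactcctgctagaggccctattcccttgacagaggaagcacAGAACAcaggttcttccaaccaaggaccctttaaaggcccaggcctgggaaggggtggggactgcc
Lama5, chr2:180225860-180226109, minus strand: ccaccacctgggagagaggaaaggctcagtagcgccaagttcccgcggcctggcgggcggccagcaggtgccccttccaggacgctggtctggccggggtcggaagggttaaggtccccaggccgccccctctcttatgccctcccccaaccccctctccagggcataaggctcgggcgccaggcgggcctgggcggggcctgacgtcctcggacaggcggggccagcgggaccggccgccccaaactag
Itga8, chr2:12301945-12302194, minus strand: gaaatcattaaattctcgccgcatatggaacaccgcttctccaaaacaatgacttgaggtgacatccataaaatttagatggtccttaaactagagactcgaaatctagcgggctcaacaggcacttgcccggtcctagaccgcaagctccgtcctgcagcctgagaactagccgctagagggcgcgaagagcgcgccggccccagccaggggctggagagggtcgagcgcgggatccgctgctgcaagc
None of the 4 windows overlaps an exon of its gene in GENCODE vM21, and the Lama2 window lies inside the annotated span of the gene. AGAACA was in 5 of the 23 genes' windows, and of the 4 printed windows in that of Lama2, against 16.1% of 32851 promoter windows of this length. The palindromic glucocorticoid receptor element was in none of the 23 and in 0.387% of all windows. The AP-1 site TGANTCA was in 1 of the 23 and in 6.75% of all windows, and the cyclic AMP response element TGACGTCA in none of the 23 and in 1.55%. A match describes letters only, and its absence says nothing of a factor's binding elsewhere.

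The cell types differed widely in which subunits they held. Because the cell types come from clustering of the same nuclei, the levels are a description with no test. Counts were not scaled for gene length, so each gene is compared only with itself across types. Of the 37 genes, 9 had their highest mean CPM in microglia, 6 in SMC-Peri, 5 in VLMC, 5 in oligodendrocytes, 3 in astrocytes, 3 in Endo, 2 in L5IT (layer 5 intratelencephalic) neurons, 2 in ChC, 1 in L6IT neurons and 1 in OPCs. The vascular libraries also held neuron RNA in uneven amounts. The 7 summed neuron markers ran from 2047 to 17341 CPM in VLMC, 1507 to 21392 CPM in SMC-Peri and 8694 to 14060 CPM in Endo, against 1503 to 3250.0 CPM in microglia and a mean of 31330.4 CPM in L6IT, the highest type. Means and ranks in the vascular types pool these libraries, and the part of such RNA in them was not tested. The highest type was the same in 34 genes when libraries were pooled, and in 14 genes it led in every library that held the type. In 10 genes the libraries of the highest and second type did not overlap.

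**Figure D1:**
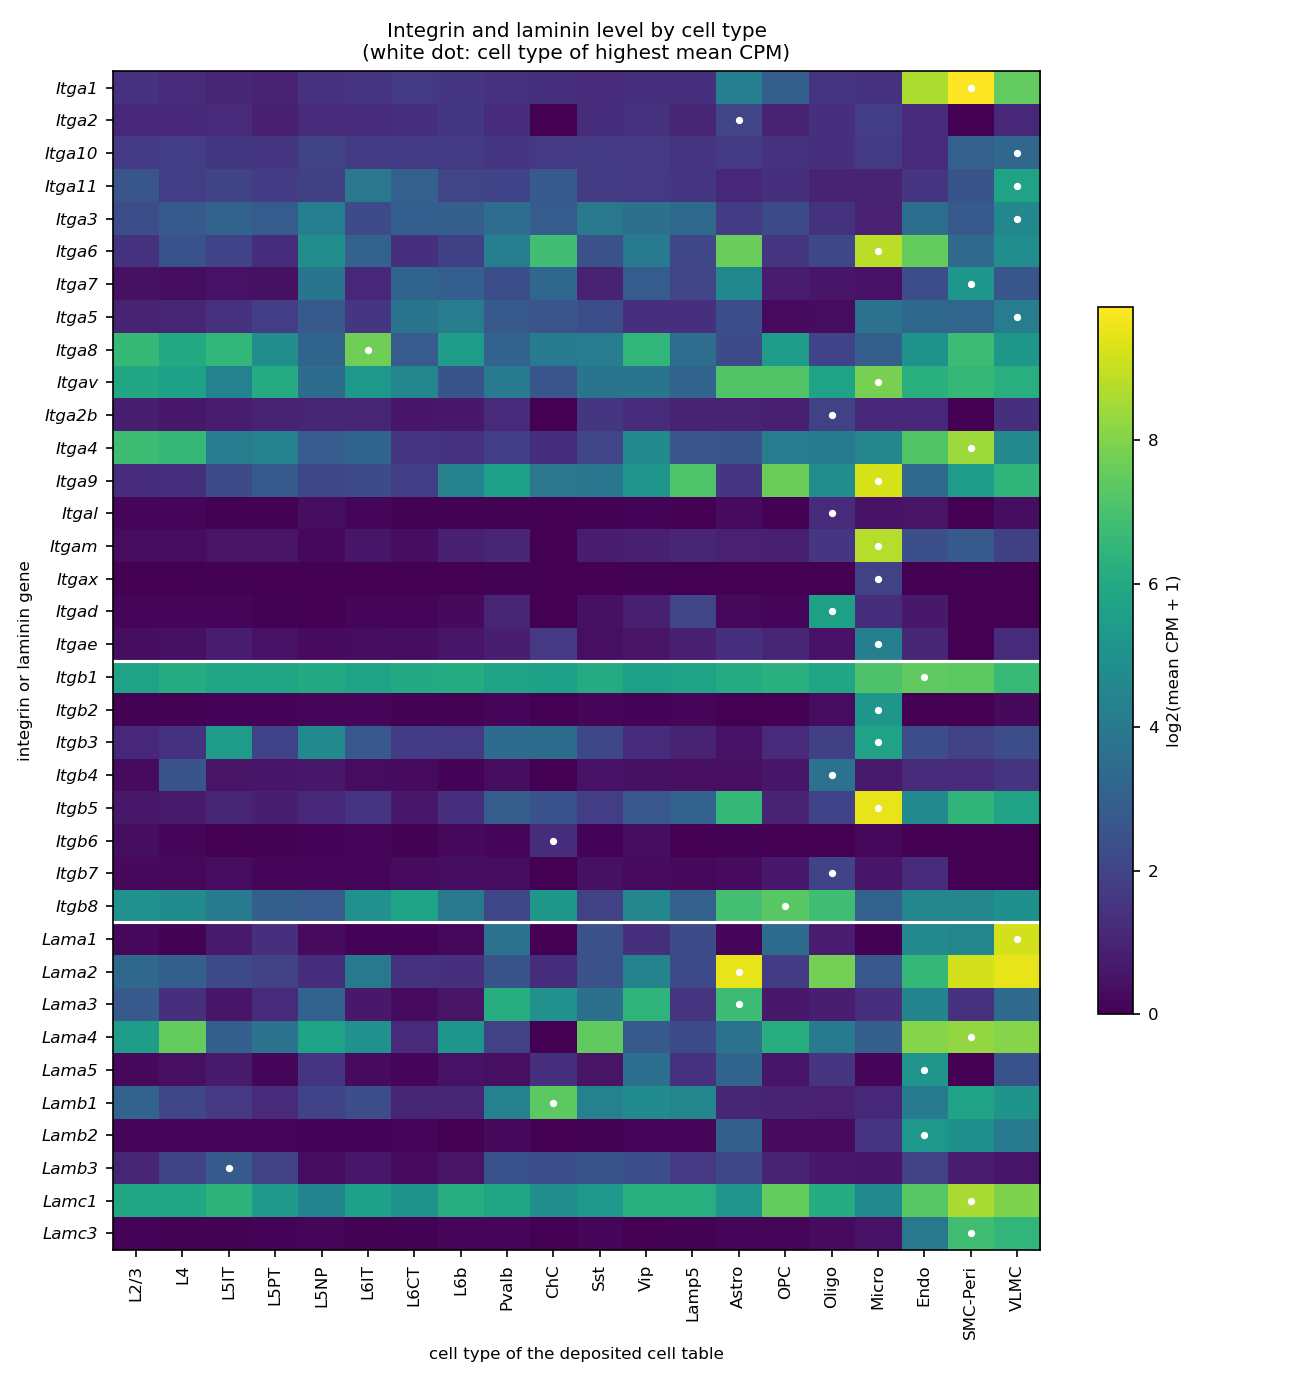
Mean CPM of the genes named in the text (rows, grouped by role) in each of the 20 cell types (columns), as log2(CPM + 1), over the libraries at least 10 nuclei of the type, with a white dot at the highest type of each gene. Itgam and Itgb2 stand out in microglia, Itga1 and Lamc3 in vascular types, and Itga8 in L6IT neurons.

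Of the collagen-binding alpha subunits, Itga1 was at 928 ± 493 CPM (SD, n = 6) in SMC-Peri and 405 ± 74.6 CPM (SD, n = 7) in Endo, and at 177 CPM in VLMC. The 6 SMC-Peri libraries spread from 219 to 1761 CPM and overlapped the Endo libraries. Itga11 was highest in VLMC at 50.5 ± 30.5 CPM (SD, n = 7), with L6IT neurons at 14.2 ± 6.85 CPM (SD, n = 8). Itga2 and Itga10 stayed at or under 3.16 and 8.58 CPM in every type. Of the laminin-binding subunits, Itga6 led in microglia at 456 ± 38.1 CPM (SD, n = 5), followed by astrocytes at 195 ± 21.5 CPM (SD, n = 8) and Endo at 181 ± 41.1 CPM (SD, n = 7), and the last 2 overlapped. Itga7 was at 34.8 ± 32.2 CPM (SD, n = 6) in SMC-Peri and 23.6 ± 3.69 CPM (SD, n = 8) in astrocytes, and Itga3 at 23.2 ± 13.2 CPM (SD, n = 7) in VLMC and 18 ± 2.83 CPM (SD, n = 8) in L5NP (near-projecting) neurons.

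Among the RGD-binding subunits, Itgav was at 229.7 ± 19.6 CPM (SD, n = 5) in microglia, 146 ± 42.5 CPM (SD, n = 8) in astrocytes and 145 ± 27.6 CPM (SD, n = 8) in OPCs, with astrocytes overlapping both microglia and OPCs. Itga8 was the subunit with its highest level in a neuron, 211 ± 40.7 CPM (SD, n = 8) in L6IT. SMC-Peri followed at 107 ± 43.4 CPM (SD, n = 6) and L2/3 neurons at 97.5 ± 49.3 CPM (SD, n = 8). Itga5 was at 17.2 ± 12.6 CPM (SD, n = 7) in VLMC and 16.6 ± 5.62 CPM (SD, n = 8) in L6b neurons, which overlapped, and Itga2b, the platelet subunit, was at 2.70 ± 1.70 CPM (SD, n = 8) in oligodendrocytes. Itga4 was at 340.2 ± 122 CPM (SD, n = 6) in SMC-Peri and 144 ± 34.9 CPM (SD, n = 7) in Endo, and L2/3 neurons were at 110.4 CPM. Itga9 was at 617 ± 62.7 CPM (SD, n = 5) in microglia and 202 ± 18.8 CPM (SD, n = 8) in OPCs. Gm2415 overlaps Itga9 on the opposite strand. When libraries were pooled, Gm2415 was at 18.3 CPM and Itga9 at 1.39 CPM in L2/3 neurons. In astrocytes they were at 4.75 and 2.06 CPM and in microglia at 3.63 and 596 CPM, so low levels of Itga9 are uncertain.

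The leukocyte subunits split between microglia and oligodendrocytes. Itgam (CD11b, a complement receptor subunit and a microglial marker) was at 428 ± 25.5 CPM (SD, n = 5) in microglia, 71.9 times the next type, SMC-Peri at 5.96 ± 5.92 CPM (SD, n = 6). Itgae was at 18 ± 2.76 CPM (SD, n = 5) in microglia, where Haspin, on the opposite strand within its span, was at 25.4 CPM when libraries were pooled, so its level is uncertain. Itgad was highest in oligodendrocytes at 47.6 ± 35.4 CPM (SD, n = 8), which held 86.3% of its UMIs, with Lamp5 neurons next at 3.17 ± 1.93 CPM (SD, n = 8). The 8 oligodendrocyte libraries ran from 21.2 to 127 CPM, so their spread was large but did not reach the Lamp5 values. Itgam, Itgax and Itgad lie next to each other on chromosome 7 (chr7:128062640-128118491, chr7:128129547-128150657 and chr7:128154376-128223816, GRCm38) and are close paralogs, so their counts may share reads. Itgax reached 2.76 ± 2.06 CPM (SD, n = 5) in microglia and had 51 UMIs in all, and Itgal was at 1.28 CPM in oligodendrocytes.

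Of the beta subunits, Itgb1 was present at 10 CPM or more in all 20 types, from its highest level in Endo, 173 ± 20.4 CPM (SD, n = 7). Itgb2, the partner of Itgal, Itgam, Itgax and Itgad, was at 35.3 ± 5.28 CPM (SD, n = 5) in microglia and at no more than 0.257 CPM in any other type. Itgb5 was at 722 ± 98.2 CPM (SD, n = 5) in microglia and 93.8 ± 6.70 CPM (SD, n = 8) in astrocytes. Itgb8 was at 160.2 ± 25.3 CPM (SD, n = 8) in OPCs, 119.9 ± 7.17 CPM (SD, n = 8) in astrocytes and 112 ± 15.5 CPM (SD, n = 8) in oligodendrocytes, all overlapping. Itgb3 was at 50.6 ± 13.6 CPM (SD, n = 5) in microglia and 41.1 ± 4.35 CPM (SD, n = 8) in L5IT neurons, which overlapped. Itgb4, which pairs with Itga6, was at 12.1 ± 2.79 CPM (SD, n = 8) in oligodendrocytes and 4.90 CPM in L4 neurons, although L4 neurons, being many, held 63.9% of its UMIs. Itgb7 was at 2.95 ± 0.705 CPM (SD, n = 8) in oligodendrocytes. The highest mean of Itgb6, in ChC, was 1 UMI in 1 of 3 libraries, and the next, in L2/3 neurons, was 0.305 ± 0.109 CPM (SD, n = 8) from 163 UMIs. Over the 20 types, the profiles of known partners on the log2(CPM + 1) scale were alike for Itgax with Itgb2 (Pearson r = 1.0, Spearman rho = 0.3) and Itgam with Itgb2 (r = 0.92, rho = 0.19), both carried by microglia, and for Itga1 with Itgb1 (r = 0.8, rho = 0.56), while Itgav gave r = 0.56 with Itgb1, 0.52 with Itgb5, 0.41 with Itgb8, -0.08 with Itgb3 and -0.43 with Itgb6. Other partners varied. With Itgb1, Itga4 gave r = 0.56, Itga5 0.54 and Itga6 0.47. Some were not alike, among them Itga6 with Itgb4 (r = -0.08), Itga3 with Itgb1 (r = -0.05), Itga8 with Itgb1 (r = 0.05) and Itgad with Itgb2 (r = 0.16). The points share their libraries and depth, and no test was made.

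The laminin alpha chains had their highest levels in different types. Lama1 was at 581 ± 279 CPM (SD, n = 7) in VLMC and 24.7 ± 13 CPM (SD, n = 7) in Endo. Lama2 was at 720.3 ± 111 CPM (SD, n = 8) in astrocytes, 712 ± 296 CPM (SD, n = 7) in VLMC and 583 ± 275 CPM (SD, n = 6) in SMC-Peri, which overlapped, and at 221 ± 66.9 CPM (SD, n = 8) in oligodendrocytes. Lama3 was at 106 ± 40.4 CPM (SD, n = 8) in astrocytes, 85.2 ± 17.6 CPM (SD, n = 8) in Vip neurons and 70.6 ± 11.1 CPM (SD, n = 8) in Pvalb neurons, all overlapping. Lama4, the chain of vessel walls, was at 308 ± 118 CPM (SD, n = 6) in SMC-Peri, 271 ± 81.4 CPM (SD, n = 7) in Endo and 266 ± 65.5 CPM (SD, n = 7) in VLMC, and L4 neurons at 183 ± 54.5 CPM (SD, n = 8) held 61.5% of its UMIs. Lama5 was at 34.1 ± 9.78 CPM (SD, n = 7) in Endo. Of the beta and gamma chains, Lamb1 was at 166 ± 113 CPM (SD, n = 3) in ChC, in libraries of 10 to 14 ChC nuclei. Lamb2 was at 37.3 ± 12.9 CPM (SD, n = 7) in Endo, Lamb3 at 5.96 CPM in L5IT neurons, where the overlapping Hsd11b1 of the opposite strand was at 26.2 CPM when libraries were pooled, and Lamc3 at 115 ± 66.9 CPM (SD, n = 6) in SMC-Peri and 88.9 ± 39.1 CPM (SD, n = 7) in VLMC. Lamc1 was at 10 CPM or more in all 20 types, with its highest level in SMC-Peri, 390.1 ± 178 CPM (SD, n = 6).

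Between conditions, UMIs were compared over libraries within each cell type by the likelihood ratio test of edgeR, with p-values adjusted over all genes tested in that type (Benjamini-Hochberg) and a call at an adjusted p under 0.05. SE stands for the standard error of a log2 fold change. It was approximated as the absolute log2 fold change over the square root of the likelihood ratio statistic. Counts of gene and cell type pairs from edgeR's quasi-likelihood test and then from DESeq2 are given in parentheses, with the share of all pairs that each called. Itgb2 and Itgax were tested in none of the 7 comparisons. The counts of Itgb2 lie in microglia, a type that lacked 10 nuclei in some libraries of each comparison, and those of Itgax were low. Itgal and Lamc3 were tested in 3 and 2 of the 7 comparisons, for want of counts or nuclei. All comparisons draw on the same 8 libraries, so those that share groups are not independent. Over all features tested, the median log2 fold change of a cell type was between -0.036 and 0.025 in every comparison. Fewer transcripts per nucleus and fewer expressing nuclei of a type cannot be told apart in these sums.

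The genotype comparison asked what Cre in astrocytes did to the set. Astrocytes of GR-KO mice had less Itgav and Lama5 and more Lama3 than those of GR-Con over both rearing conditions, and less Lama2 in NR. In the fit over 8 libraries that held rearing as a term, 3 of the 22 genes tested in astrocytes were called (13.6%, against 4.8% of all genes), 1 higher and 2 lower, where 1.9% and 2.91% of all genes were called. By quasi-likelihood 2 were called and by DESeq2 3, against 2.85% and 3.91% of astrocyte genes. Over all cell types, these were the only calls among 313 pairs (0.958%, against 0.395% of all gene and cell type pairs, and 0.196% and 0.329% of all pairs by the other tests). The median log2 fold change of the 22 was -0.037 and that of all astrocyte genes -0.00031.

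Library values are given below in the order GR-Con male, GR-Con female, GR-KO male, GR-KO female, first for NR and then for DR. Itgav, the alphav subunit, was in astrocytes at 190.2, 175, 115 and 107 CPM in NR and 151, 212, 105 and 111 CPM in DR. Every GR-KO library lay below every GR-Con library. The log2 fold change was -0.76, SE 0.12, adjusted p = 1.58e-07 over both conditions, -0.79, SE 0.14, adjusted p = 7.52e-07 in NR and -0.72, SE 0.22, adjusted p = 0.123 in DR, where it was not called. The quasi-likelihood adjusted p over both conditions was 0.0033, and the call held in each of the 8 fits that left out a library. The test of the difference between the NR and the DR effect gave -0.07, SE 0.26, adjusted p = 1.

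Lama3, the alpha chain of laminins of epithelial anchoring complexes, was in astrocytes at 88.1, 76.6, 94.2 and 171 CPM in NR and 71.8, 62.1, 150.3 and 136 CPM in DR. Every GR-KO library was above every GR-Con library. The log2 fold change was 0.87, SE 0.20, adjusted p = 0.000553, with a quasi-likelihood adjusted p of 0.031, and it held in 8 of 8 fits that left out a library. In NR it was 0.63, SE 0.26, adjusted p = 0.156 and not called, and in DR 1.11, SE 0.21, adjusted p = 4.38e-05, a call lost without DR GR-KO male (adjusted p = 0.681, edgeR) or DR GR-KO female (0.278). Lama2, the alpha chain of the laminin of brain endfeet and muscle, was in astrocytes at 777, 829, 577 and 608 CPM in NR and 908, 681, 689.6 and 693 CPM in DR. Both NR GR-KO libraries were below both NR GR-Con libraries, and the DR libraries overlapped. In NR the log2 fold change was -0.50, SE 0.16, adjusted p = 0.0229, lost in 4 of 4 fits that left out a library, and over both conditions -0.34, SE 0.14, adjusted p = 0.164. Lama5 was in astrocytes at 10.5, 8.81, 5.22 and 6.82 CPM in NR and 7.85, 14, 5.67 and 5.84 CPM in DR. Its GR-KO libraries were all below its GR-Con libraries, with a log2 fold change of -0.81, SE 0.22, adjusted p = 0.00924 over both conditions, quasi-likelihood adjusted p = 0.0659, and the call was lost in 4 of 8 fits that left out a library. In NR its call was -0.73, SE 0.25, adjusted p = 0.0458, and it was lost in most fits that left out a library. In those fits the log2 fold change ran from -0.56 without NR GR-KO male to -0.85 without NR GR-Con female.

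**Figure D2:**
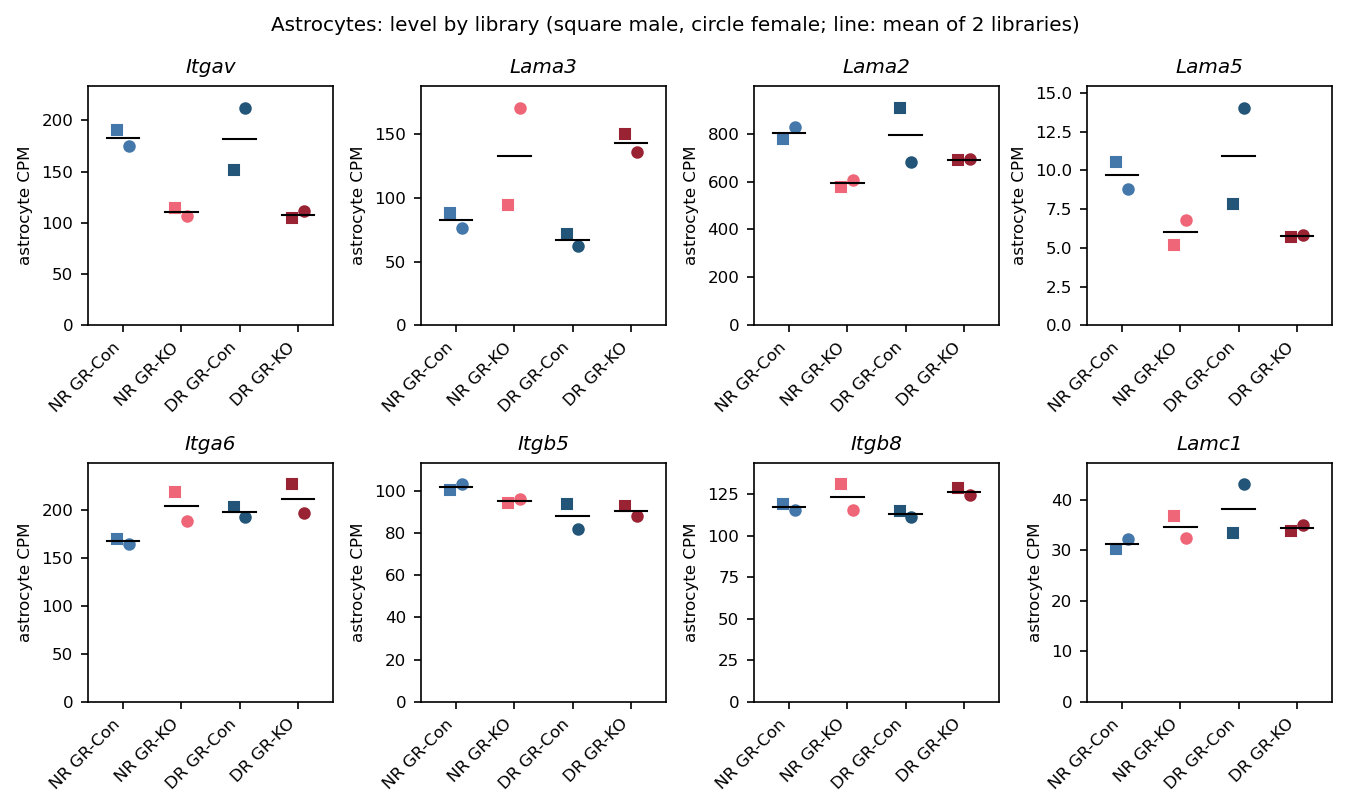
CPM in astrocytes of the members described, 1 point per library (squares male, circles female) in the 4 groups, with lines for the means of 2 libraries. Itgav points of GR-KO lie between 105 and 115 CPM and those of GR-Con between 151 and 212 CPM, and Lama3 points of GR-KO lie above those of GR-Con.

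The other astrocyte members of at least 20 CPM did not pass the test over both conditions. The laminin receptor subunits Itga6 and Itga7 had log2 fold changes of 0.17 and 0.28 (edgeR adjusted p = 0.561 and 0.406), Itgb1 of 0.08, Itgb5 of -0.05, Itgb8 of 0.09 and Lamc1 of -0.02. By library, Itga6 was at 169.6, 164, 219 and 188 CPM in NR and 203, 192, 226 and 196 CPM in DR and Itga7 at 24.9, 17.6, 28.8 and 22.9 CPM in NR and 20.3, 21.6, 26.5 and 26.2 CPM in DR. Itgb1 was at 55.6, 62.6, 70.1 and 74.1 CPM in NR and 56.1, 80.4, 59.5 and 68.3 CPM in DR, Itgb5 at 100.4, 103, 94 and 96.1 CPM in NR and 93.9, 81.7, 93 and 88.1 CPM in DR and Itgb8 at 119, 116, 131 and 115 CPM in NR and 115, 111, 129 and 124 CPM in DR. In each of these 5 the GR-KO and GR-Con libraries overlapped. So Itgav was lower, while over both conditions the log2 fold changes of its partners Itgb1, Itgb5 and Itgb8 were within 0.1 of 0. Their SE were 0.14, 0.11 and 0.10. In NR alone, both GR-KO libraries lay above both GR-Con libraries for Itgb1 and below them for Itgb5. The summed neuron markers in astrocytes, all 7 found, ran from 919 to 1047 CPM in NR GR-Con, 1923 to 2081 CPM in NR GR-KO, 1149 to 1621 CPM in DR GR-Con and 1358 to 1394 CPM in DR GR-KO, and the summed astrocyte markers from 11415 to 14361 CPM over the 8 libraries. OPC markers were at 32 to 34, 78 to 98, 55 and 124 to 131 CPM in the same order. The part of such RNA in these results was not tested.

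Within NR, 7 of 338 pairs were called (2 and 2 by the other tests, 0.361% and 0.433% of all pairs), or 2.07% against 0.804% of all pairs, and 3 of these were in astrocytes (13.6% of 22 genes, against 7.11%). The other 4 calls were in neurons: L5IT Itga9, L5PT (pyramidal tract) Lama2 and Lama3, and L6b Itga8. Within DR, 6 of 306 pairs were called (0 and 4 by the other tests, 0.00431% and 0.38% of all pairs, 44 at an unadjusted p under 0.05, or 39 by the quasi-likelihood test), or 1.96% against 0.513%, with Lama3 the 1 astrocyte call of 22 (4.55% against 0.736%). The 5 neuron calls included Itgb8 in L4 and L5IT, Lama2 in L5IT and Itga7 in L6CT. The quasi-likelihood adjusted p was over 0.18 for each of these 9 neuron calls, and none was called over both conditions.

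Both calls in L5PT neurons were at low levels. Lama2 in L5PT neurons was at 5.00, 6.25, 1.89 and 1.85 CPM in NR and 1.85, 2.01, 1.53 and 1.71 CPM in DR, and Lama3 at 2.06, 2.19, 0.693 and 1.11 CPM in NR and 1.14, 1.60, 0.306 and 1.20 CPM in DR. Their NR fold changes were -1.59, SE 0.33, adjusted p = 0.000653 and -1.49, SE 0.43, adjusted p = 0.0394, and the NR GR-KO female value rests on 59 nuclei. Itgb8, the TGF-beta-activating subunit, was lower in DR GR-KO than in DR GR-Con in L5IT neurons (-1.27, SE 0.29, adjusted p = 0.00492) and in L4 neurons (-1.23, SE 0.31, adjusted p = 0.0116). In L5IT the values were at 25.5, 23.6, 12.8 and 24.6 CPM in NR and 14.1, 10.5, 4.03 and 6.03 CPM in DR, and in L4 at 36.8, 29.6, 22.4 and 34.7 CPM in NR and 37.2, 22.1, 10.4 and 14.3 CPM in DR. Itga7 in L6CT neurons was at 6.14, 8.62, 6.31 and 8.45 CPM in NR and 3.76, 5.20, 13.9 and 11.1 CPM in DR, with both DR GR-KO libraries above both DR GR-Con libraries (1.48, SE 0.24, adjusted p = 2.52e-06). Lama2 in L5IT was at 2.59, 2.86, 5.69 and 2.82 CPM in NR and 6.84, 3.83, 1.95 and 1.15 CPM in DR (-1.77, SE 0.46, adjusted p = 0.0192 in DR).

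The interaction (genotype effect in NR less the one in DR) was called in 2 of 332 pairs (0 and 1 by the other tests, 0.00276% and 0.135% of all pairs, 36 and 24 at an unadjusted p under 0.05), or 0.602% against 0.181%. Itga9, which overlaps Gm2415, was in L5IT neurons at 0.941, 1.07, 4.65 and 2.82 CPM in NR and 3.95, 10.0, 3.48 and 2.69 CPM in DR. The difference was 3.06, SE 0.72, adjusted p = 0.0108, with 0.354 by quasi-likelihood and 0.05 by DESeq2, and it was called in 4 of 8 fits that left out a library. Its NR effect was 1.91, SE 0.46, adjusted p = 0.0259. Itga8 in L6b neurons was at 67.4, 46.9, 26.4 and 25.4 CPM in NR and 32.5, 45.3, 47.3 and 48.5 CPM in DR. The difference was -1.43, SE 0.32, adjusted p = 0.0275, with 0.994 by the quasi-likelihood test, and it was called in 4 of 8 such fits. The NR effect of Itga8 there was -1.12, SE 0.23, adjusted p = 0.0104.

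Rearing was compared to ask how the set differed between dark- and light-reared cortex. In the fit over 8 libraries that held genotype as a term, 38 of 313 pairs were called (15 and 38 by the other tests, 3.48% and 5.23% of all pairs), or 12.1% against 5.4% of all pairs. Of these, 19 were higher and 19 lower in DR, where 2.69% and 2.7% of all pairs were. Excitatory neurons held 30 of them, 15 higher and 15 lower, of 181 pairs (16.6% against 7.88%, of which 3.89% and 3.99% higher and lower). Inhibitory neurons held 5 of 79 (6.33% against 2.04%) and oligodendrocytes with OPCs 3 of 31 (9.68% against 3.11%). No member was called in astrocytes by any of the 3 tests, 0 of 22 (0 at an unadjusted p under 0.05 by the likelihood ratio test and by DESeq2, 1 by the quasi-likelihood test), against 0.917% of all astrocyte genes. Within GR-Con 26 of 314 pairs were called (11 and 16, 0.495% and 1.52% of all pairs), 12 higher and 14 lower, or 8.28% against 2.25% (1.41% and 0.84% higher and lower), and within GR-KO 36 of 346 (4 and 18, 0.857% and 2.6% of all pairs), 24 higher and 12 lower, or 10.4% against 3.66% (1.69% and 1.96% higher and lower). The median log2 fold change of the members in excitatory types was -0.0026.

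**Figure D3:**
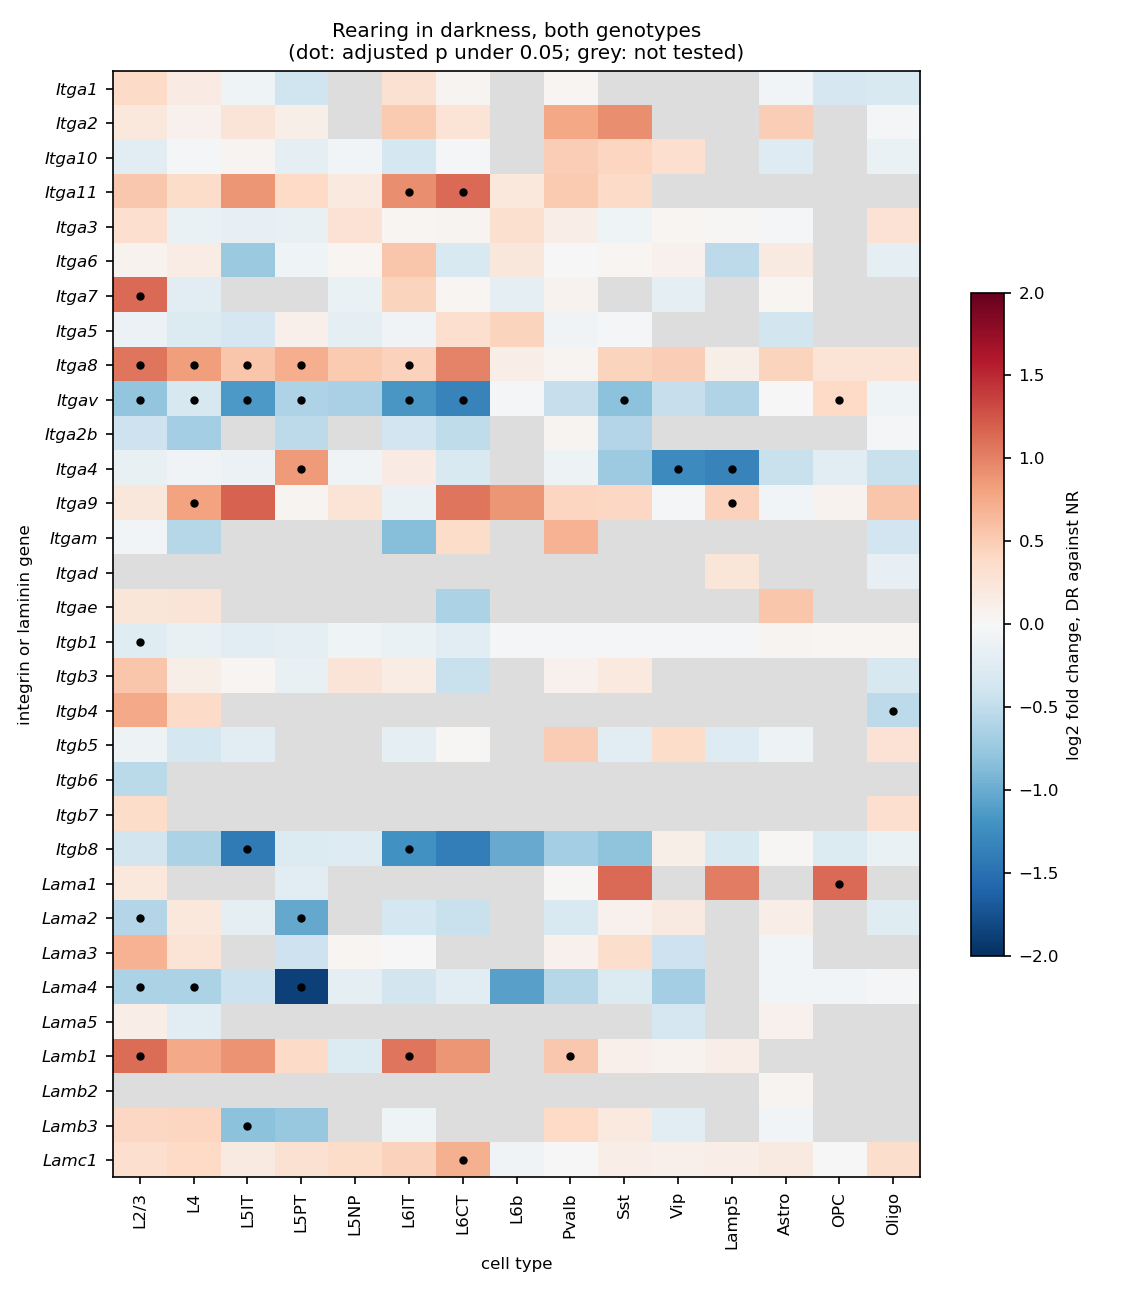
Log2 fold change of DR against NR (all 8 libraries, genotype as a term) for each member named in the text (rows) and cell type (columns), with a dot where the adjusted p was under 0.05 and grey where the pair was not tested. Itgav is below 0 in every excitatory type and Itga8 above 0 in every excitatory type.

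Excitatory neurons of dark-reared mice had less Itgav and more Itga8. Itgav had a negative log2 fold change in 8 of 8 excitatory types and was lower in 6 by the test, L2/3, L4, L5IT, L5PT, L6IT and L6CT. The types come from the same 8 libraries and are not independent. In L6CT (corticothalamic) neurons Itgav was at 29.9, 36.4, 22.5 and 37.1 CPM in NR and 18.2, 12, 9.34 and 10.7 CPM in DR, so each DR library lay below each NR library, and the fold change was -1.34, SE 0.22, adjusted p = 1.12e-07. In L6IT it was at 46.3, 56.2, 40.3 and 61.7 CPM in NR and 34.4, 21.6, 16.5 and 20.5 CPM in DR (-1.17, SE 0.23, adjusted p = 3.55e-05), and in L5IT at 29.3, 30.3, 17.8 and 29.3 CPM in NR and 15, 12.8, 8.21 and 12.2 CPM in DR (-1.15, SE 0.20, adjusted p = 4.76e-06). These 3 held in 8 of 8 fits that left out a library and by the quasi-likelihood test. In L2/3 the values were at 72.1, 74.3, 75.2 and 65.8 CPM in NR and 64.7, 38.7, 21.5 and 44.5 CPM in DR (-0.79, SE 0.26, adjusted p = 0.0201), in L5PT at 73.3, 92.9, 65.6 and 87.8 CPM in NR and 63.7, 54.3, 36.9 and 52.2 CPM in DR (-0.62, SE 0.17, adjusted p = 0.0134) and in L4 at 55.8, 59.4, 58.1 and 46.4 CPM in NR and 46, 41.9, 37.6 and 44.9 CPM in DR (-0.33, SE 0.11, adjusted p = 0.0463). The L2/3, L5PT and L4 calls were kept in 5, 4 and 3 of 8 such fits. Sst neurons, at 20.1, 15.6, 13.6 and 18.3 CPM in NR and 9.73, 10.8, 7.75 and 9.39 CPM in DR, were lower as well (-0.82, SE 0.16, adjusted p = 0.000818). OPCs went the other way, at 131, 104, 161 and 109 CPM in NR and 165, 144, 175 and 169.8 CPM in DR (0.40, SE 0.12, adjusted p = 0.0419), and there the 2 conditions overlapped. That call was lost by quasi-likelihood (adjusted p = 0.0718) and kept in 3 of 8 such fits.

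Itga8, whose subunit pairs with beta1 and binds RGD ligands such as nephronectin, was positive in 8 of 8 excitatory types and higher by the test in 5. In L4 neurons it was at 45.6, 57.8, 36.6 and 49 CPM in NR and 66.8, 102, 84.2 and 73.4 CPM in DR, with each DR library above each NR library (0.83, SE 0.16, adjusted p = 3.04e-05). In L5IT it was at 82.3, 72.4, 79.2 and 66 CPM in NR and 101, 106, 124 and 109 CPM in DR (0.55, SE 0.11, adjusted p = 9.1e-05) and in L6IT, its highest type, at 171, 189.9, 174 and 175 CPM in NR and 206, 261, 253 and 261 CPM in DR (0.46, SE 0.10, adjusted p = 0.000559). These 3 held in 8 of 8 fits that left out a library. In L5PT it was called higher (0.73, SE 0.18, adjusted p = 0.00497), a call lost in some such fits, with log2 fold changes of 0.58 to 0.72. There it was at 22.1, 25, 18.7 and 17 CPM in NR and 25.4, 45.5, 36.8 and 30.0 CPM in DR. In L2/3 it was at 49.4, 47, 105 and 50.4 CPM in NR and 145, 173, 135 and 74.4 CPM in DR (1.07, SE 0.32, adjusted p = 0.0103), where the NR GR-KO male library overlapped DR and the call was lost in 4 of 8 such fits. Within GR-Con the L2/3 change was 1.68, SE 0.16, adjusted p = 1.38e-23.

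**Figure D4:**
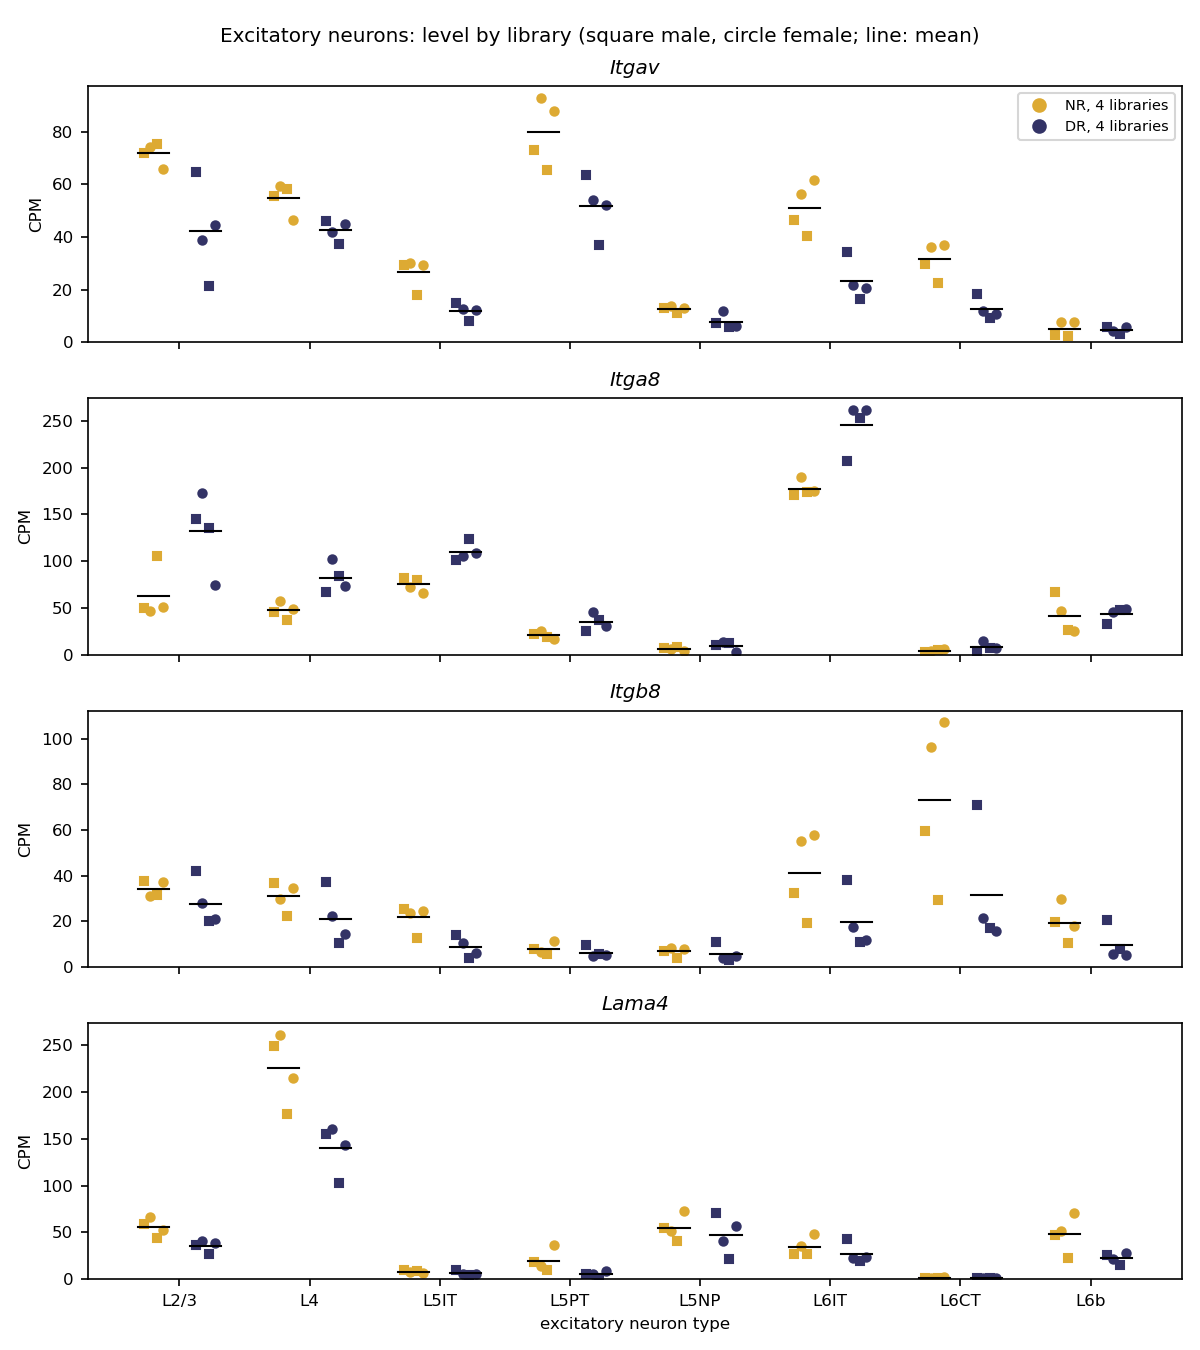
CPM per library in excitatory neuron types of Itgav, Itga8, Itgb8 and Lama4 (squares male, circles female), 4 NR and 4 DR libraries, with lines for means. Itgav in L6CT lies between 22.5 and 37.1 CPM in NR and between 9.34 and 18.2 CPM in DR, and Itga8 in L4 between 36.6 and 57.8 CPM in NR and 66.8 and 102 CPM in DR.

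The laminin chains did not all move in the same direction in excitatory neurons. Lama4 had a negative log2 fold change in 8 of 8 types. In L4, the neuron type with its highest level, Lama4 was at 249.6, 261, 176 and 215 CPM in NR and 155, 161, 103 and 144 CPM in DR, and every DR library lay below every NR library (-0.64, SE 0.13, adjusted p = 6.64e-05). In L2/3 it was at 59.2, 66.2, 43.6 and 52 CPM in NR and 36.4, 40.3, 26.4 and 38.5 CPM in DR (-0.64, SE 0.15, adjusted p = 0.00063), and both calls held in 8 of 8 fits that left out a library. In L5PT it was at 17.9, 13.7, 10.0 and 35.9 CPM in NR and 5.14, 5.68, 1.53 and 8.23 CPM in DR (-1.86, SE 0.49, adjusted p = 0.0107), and in L6b within GR-Con -1.06, SE 0.20, adjusted p = 0.000125. Lamb1 was higher: in L6IT it was at 2.21, 2.60, 3.14 and 2.37 CPM in NR and 5.70, 5.22, 5.15 and 5.79 CPM in DR, with no overlap (1.07, SE 0.17, adjusted p = 1.24e-07), and in L2/3 at 3.56, 3.36, 10.2 and 3.54 CPM in NR and 10.6, 9.41, 15.2 and 7.33 CPM in DR, with overlap through NR GR-KO male (1.12, SE 0.35, adjusted p = 0.0128). Lama2 was lower in L2/3, at 12, 8.24, 11 and 11.7 CPM in NR and 8.23, 8.37, 5.98 and 6.34 CPM in DR (-0.58, SE 0.16, adjusted p = 0.00384), and in L5PT (-1.02, SE 0.30, adjusted p = 0.0272), where DR GR-Con is close to NR GR-KO. Lamc1 in L6CT was at 24, 22.8, 29.3 and 18.8 CPM in NR and 23.6, 56, 37.1 and 37.6 CPM in DR (0.70, SE 0.24, adjusted p = 0.0352). There the NR and DR libraries overlapped, and the log2 fold change without DR GR-Con female was 0.42. The calls of Lamc1 in L6CT and Lama2 in L5PT were lost in most fits that left out a library. The L5PT call of Lama4 and the L2/3 calls of Lamb1 and Lama2 were lost in some.

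Among the other integrin subunits, Itgb8 was negative in 8 of 8 excitatory types. It was called lower in L5IT (-1.41, SE 0.28, adjusted p = 0.000101), where it held in 8 of 8 fits that left out a library. In L6IT it was also called lower, at 32.5, 55.3, 19.3 and 57.9 CPM in NR and 38.3, 17.6, 10.7 and 11.7 CPM in DR (-1.22, SE 0.42, adjusted p = 0.0498). There the NR and DR libraries overlapped and the call was lost in most such fits, with a log2 fold change of -0.69 without NR GR-KO female. Within GR-KO Itgb8 was also lower in L4, L2/3 and L6CT, where it was at 59.8, 96.3, 29.3 and 107 CPM in NR and 71.1, 21.3, 17.1 and 15.9 CPM in DR (-2.03, SE 0.57, adjusted p = 0.00986). Itgb1 was negative in 8 of 8 types, with a call in L2/3 of small size, at 54.9, 54.4, 56.8 and 52.3 CPM in NR and 46.1, 46.4, 44.6 and 47.2 CPM in DR (-0.25, SE 0.09, adjusted p = 0.0308), kept in 1 of 8 such fits. Itga11 was positive in 8 of 8 types. In L6CT it was at 4.35, 4.94, 2.48 and 5.81 CPM in NR and 5.54, 9.35, 12.6 and 12 CPM in DR (1.13, SE 0.31, adjusted p = 0.00431) and in L6IT at 11.2, 9.01, 9.28 and 9.40 CPM in NR and 9.14, 26.3, 22.4 and 17 CPM in DR (0.92, SE 0.27, adjusted p = 0.0163). Itga4, the subunit that binds VCAM1 and fibronectin, was higher in L5PT, at 15.3, 12.3, 20.2 and 5.55 CPM in NR and 26.9, 27, 25.3 and 21.1 CPM in DR (0.85, SE 0.25, adjusted p = 0.0231). The calls of Itga11 in L6IT, where NR and DR overlapped, and of Itga4 in L5PT were lost in most fits that left out a library. Itga7 in L2/3 was at 0.279, 0.137, 0.241 and 0.261 CPM in NR and 0.452, 0.394, 0.835 and 0.377 CPM in DR, higher in DR (1.13, SE 0.34, adjusted p = 0.0094). Itga9, which overlaps Gm2415, was also higher in L4 (0.81, SE 0.24, adjusted p = 0.0149). It was there at 0.975, 0.991, 0.900 and 1.56 CPM in NR and 1.20, 2.14, 2.31 and 1.95 CPM in DR. Lamb3, which overlaps Hsd11b1, was in L5IT at 8.71, 8.11, 5.26 and 8.26 CPM in NR and 3.49, 3.90, 3.90 and 6.03 CPM in DR and lower (-0.81, SE 0.25, adjusted p = 0.0342). These 3 calls were kept in 6, 4 and 2 of 8 such fits, and of the 3 the libraries of NR and DR overlapped for Itga9 and Lamb3.

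Markers of other cell types were summed within the excitatory types, over 6 lists in 8 types. In 4 of these sums NR and DR did not overlap, each lower in DR. Astrocyte markers in L6CT were at 904 to 1049 CPM in NR and 680 to 897 CPM in DR. Microglial markers in L4 were at 29.0 to 32.0 CPM in NR and 22.9 to 27.1 CPM in DR. Endothelial markers were at 1.82 to 4.79 CPM in NR and 1.27 to 1.62 CPM in DR in L6CT, and at 1.79 to 4.14 CPM and 1.31 to 1.69 CPM in L6IT. Itgav was called lower in these 3 types, and Lama4 in L4. The part of such RNA in these results was not tested.

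In inhibitory neurons Itga4 was lower in Vip neurons, at 32.4, 32.8, 22.8 and 55.1 CPM in NR and 16.7, 14.6, 10.0 and 16.7 CPM in DR, no overlap and -1.27, SE 0.25, adjusted p = 0.000349, a call kept in 8 of 8 fits that left out a library. In Lamp5 neurons it was at 10.00, 7.84, 4.84 and 6.77 CPM in NR and 2.27, 2.05, 3.69 and 3.33 CPM in DR (-1.34, SE 0.35, adjusted p = 0.0101). Lamb1 in Pvalb neurons was at 18.3, 16.4, 14.1 and 13.3 CPM in NR and 17.6, 26.5, 26.9 and 18.6 CPM in DR (0.53, SE 0.16, adjusted p = 0.0261), and Itga9 in Lamp5 neurons at 96.4, 145, 113 and 127 CPM in NR and 125, 148, 209 and 156 CPM in DR (0.46, SE 0.14, adjusted p = 0.0496). For both, the NR and DR libraries overlapped and the call was lost in most fits that left out a library. The Lamp5 call of Itga4 was lost in some. Without DR GR-KO male the log2 fold changes were 0.39 for Lamb1 and 0.32 for Itga9. In oligodendrocytes Itgb4 was lower, at 12.8, 14.3, 16.5 and 13.8 CPM in NR and 10.7, 7.71, 10.1 and 11 CPM in DR (-0.52, SE 0.16, adjusted p = 0.0362). This call was lost by quasi-likelihood and by DESeq2 (adjusted p = 0.104 and 0.16) and kept in 2 of 8 fits that left out a library. In OPCs Lama1 was higher, at 4.25, 7.37, 8.51 and 6.12 CPM in NR and 21.4, 8.01, 14.8 and 11.6 CPM in DR (1.13, SE 0.31, adjusted p = 0.0231), where DR GR-Con female lay below NR GR-KO male. By quasi-likelihood the adjusted p was 0.0726, and the call was kept in 4 of 8 such fits.

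Several pairs were called within a genotype but not over both. Within GR-Con these were Itga9 in L5IT (2.77, SE 0.53, adjusted p = 1.08e-05), Lamb1 in L5IT, at 0.706, 0.835, 3.55 and 1.01 CPM in NR and 2.73, 2.94, 3.62 and 1.28 CPM in DR (1.86, SE 0.42, adjusted p = 0.000477), Lama3 in Vip (-0.61, SE 0.13, adjusted p = 0.00331), Lama1 in Sst (1.32, SE 0.33, adjusted p = 0.013) and Itgav in Pvalb (-0.56, SE 0.16, adjusted p = 0.0328), besides Lama4 in L6b, given above, and Lamb1 and Lama2 in L4, Itga11 in L5IT and Lama3 in L2/3, the last 4 higher. Within GR-KO they included Itga8 in L6b (0.87, SE 0.20, adjusted p = 0.0104) and Itga4 in astrocytes, the 1 astrocyte call, at 4.93, 4.33, 6.76 and 6.13 CPM in NR and 5.13, 5.13, 2.93 and 2.78 CPM in DR (-1.09, SE 0.30, adjusted p = 0.0159). Itgam was called lower in L6IT and higher in Pvalb neurons at levels of 2.33 CPM or less, where microglia hold 428 CPM. No difference between the rearing effects in GR-Con and GR-KO was called for these except Itga9 in L5IT and Itga8 in L6b, given above as the interaction.

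The vessel types were tested where each library of a comparison held 10 nuclei. Within GR-KO, VLMC had 7 of 14 tested genes higher in DR and none lower (50%, against 19.9% of all genes, 6.94% higher and 13% lower). By quasi-likelihood 4 were called and by DESeq2 0 (4 at an unadjusted p under 0.05), against 15% and 7.46% of all genes. The median log2 fold change of the 14 was 0.91, against 0.025 over all VLMC genes. The values for the collagen receptor Itga1 were 108 and 92 CPM in NR GR-KO and 271 and 274 CPM in DR GR-KO, and the fold change was 1.21, SE 0.29, adjusted p = 0.000452. For Lama1 they were 238 and 411 CPM in NR GR-KO and 929 and 764 CPM in DR GR-KO (1.11, SE 0.38, adjusted p = 0.023), for Lamc1 136 and 170.1 CPM in NR GR-KO and 428 and 370.5 CPM in DR GR-KO (1.11, SE 0.31, adjusted p = 0.00299) and for Itgb5 24.9 and 19.5 CPM in NR GR-KO and 72.2 and 66.7 CPM in DR GR-KO (1.43, SE 0.41, adjusted p = 0.00403). Lama2, Itga9 and Lamc3 had fold changes of 1.00, 0.98 and 0.93 (edgeR adjusted p = 0.0236, 0.0286 and 0.0323). Each of the 7 calls was lost in some fit that left out a library. In the fits that lost a call, the log2 fold changes ran from 0.70 (Lama2) to 1.43 (Itgb5), both without DR GR-KO female. In all 7 both DR GR-KO libraries were above both NR GR-KO libraries. The same values gave the calls, so this adds no support, and the share of all VLMC genes so separated was not counted. The markers differed between these libraries as well. The 7 summed neuron markers in VLMC were at 13214 and 17341 CPM in NR GR-KO and 2047 and 2827 CPM in DR GR-KO. The 6 summed VLMC markers were at 659 and 760 CPM against 1718 and 1328 CPM. NR GR-Con had 16292 and 11751 CPM of neuron markers and the DR GR-Con library with enough nuclei had 4238 CPM. Their part in the 7 calls was not tested. No member was called within Endo or SMC-Peri in any comparison that held these types in all its libraries. Few genes of any kind were called in these types, 0% to 0.433% of all genes in the wider fit given next. Between genotypes within NR, 0 of 15 members were called in VLMC, where 0 of 6694 genes were called. These counts of 0 do not show that the set was unchanged.

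A further fit, chosen after seeing the data, kept the rare types in the libraries that had 10 nuclei. For rearing over both genotypes it called 7 of 18 members in VLMC (38.9%, against 20.2% of all genes), 6 higher and 1 lower, where 7.17% and 13% of all genes were. Higher were Itga1, Itga3, Itgb5, Lama1, Lamc1 and Lamc3, with log2 fold changes of 0.83 to 1.25, and lower was Itga4 at -1.98. In SMC-Peri it called 1 of 11, Lamb1, higher at 1.93 (SE 0.51, edgeR adjusted p = 0.046), from 3 to 7 UMIs a library in NR and 5 to 17 in DR, against 0.433% of all genes. The summed neuron markers in those SMC-Peri libraries were at 14540.1 to 21392 CPM in NR and 1507 to 11702 CPM in DR, and their part in the call was not tested. In microglia 0 of 16 members were called by the likelihood ratio test (2 at an unadjusted p under 0.05, against 1.24% of all genes called), and in Endo 0 of 14 (2 at an unadjusted p under 0.05, against 0.164%). For genotype it called none in these 4 types, with 1, 1, 0 and 2 members at an unadjusted p under 0.05 in microglia, Endo, SMC-Peri and VLMC, where 0.139%, 0.082%, 0% and 0% of all genes were called.

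**Figure D5:**
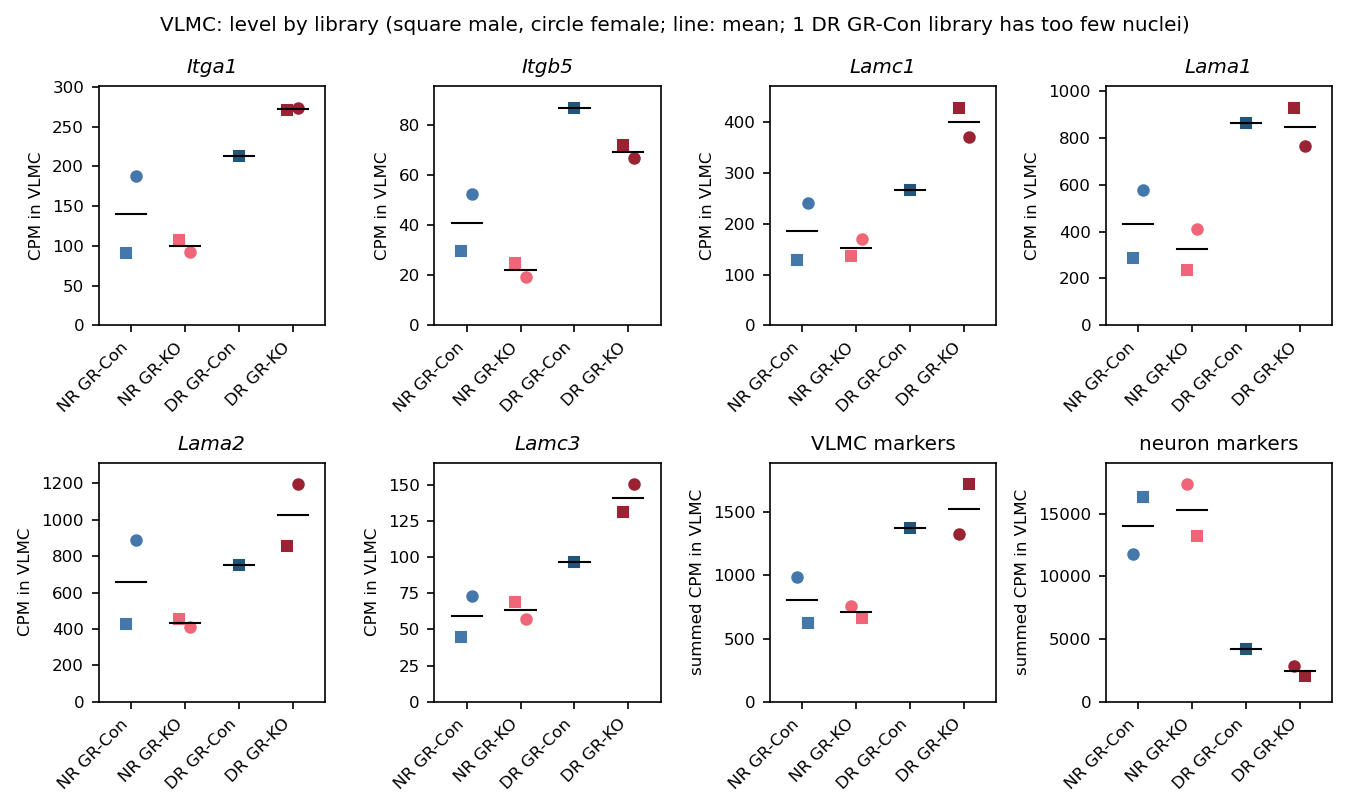
CPM in VLMC per library of 6 of the 7 members called within GR-KO, and the summed VLMC and neuron markers, in the 4 groups, with lines for means (DR GR-Con has 1 library with enough nuclei). Within GR-KO, both DR libraries are above both NR libraries for each member and below them for the neuron markers.

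Other genes of the pathway were followed by 3 lists, 18 basement membrane partners, 19 further integrin ligands and 24 cytoplasmic partners of integrins. In the rearing comparison over both genotypes, 9 of 152 pairs of the first list were called (6 higher), 13 of 120 of the second (4 higher) and 25 of 308 of the third (20 higher), against 5.4% of all pairs. All 25 cytoplasmic calls were among the 165 pairs in excitatory neurons, where 7.88% of all pairs were called and which held 9464 of the 11443 calls over all genes. Tln2, the talin that couples beta subunits to actin, was higher in 5 excitatory types, with log2 fold changes of 0.41 in L2/3, 0.40 in L4, 0.39 in L5IT, 0.30 in L6CT and 0.35 in L6IT. Ptk2b, a kinase related to focal adhesion kinase, was higher in L2/3, L4, L5NP, L5PT and L6IT, by 0.67 in L2/3, while Fermt2, a kindlin, was lower in L5PT, L6CT and L6IT. Of the ligands, Fbln5 and Lrrc32 were lower in L2/3, by log2 fold changes of -2.34 and -2.19, and Ltbp3 in L4 by -0.86. In astrocytes between genotypes over both conditions, 2 of 15 genes of the first list, 2 of 9 of the second and 0 of 22 of the third were called, against 4.8% of all genes. Nid2, a nidogen that links laminin to collagen IV, was higher by 0.97 (edgeR adjusted p = 2.7e-06), Vcam1 higher by 0.71 (0.00933), Sparc lower at -1.75 (0.000138) and Nrros lower at -1.20 (0.00156), where Nrros holds latent TGF-beta for alphav integrins. In NR 2 of 15, 2 of 9 and 2 of 22 were called in the same order, against 7.11% of all astrocyte genes, and the share of the third list was near that background.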

How the data were processed

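The deposited matrix holds UMI counts per gene and nucleus, not normalized, and the deposited cell table names each nucleus' library and cell type, used as given. The authors aligned reads with Cell Ranger 8.0.1 to mm10 with a custom annotation that held eGFP. They worked in Seurat 5.3.0 and removed nuclei of very few or very many counts, doublets called by DoubletFinder, and clusters without marker genes. Column sums matched the cell table in all 102330 nuclei.

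UMI counts were summed per library and cell type and scaled to CPM. Each fit needed 10 nuclei of the type in every library, and used edgeR 4.0.16 in R 4.3.3 (filterByExpr, TMM, estimateDisp, glmFit and the likelihood ratio test, with Benjamini-Hochberg adjustment over all genes of the type). The alternatives were edgeR's quasi-likelihood test, DESeq2 1.42.0, RLE size factors, no filter on low counts, sex as a term, a minimum of 30 nuclei and each library left out. With 1 mouse of each sex per group, p-values measure the spread between these libraries. Fits were checked on simulated counts.

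The members follow from a rule on gene symbols, but they and the gene lists were chosen with earlier results of these data known. Every member was described except 1, which is counted in the totals and not reported here by name. The rule for naming took pairs at an adjusted p under 0.05, up to 25 a comparison, and members of at least 20 CPM in GR-Con in astrocytes and vascular types. Library values are given for most of them, and others by fold change or by mean and SD. Gene positions are from GENCODE vM21 on GRCm38, and promoter windows from RefSeq on GRCm38.p6, which held 23 of the 37 members.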

Additional observations from a re-analysis of the deposited data

Results flagged for a closer look

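The effect of GR-KO differed between NR and DR, by the test of the difference itself, for Itga9 in L5IT neurons (3.06 on the log2 scale) and for Itga8 in L6b neurons (-1.43). For Itga9 the GR-KO libraries were above the GR-Con libraries in NR and below them in DR, at levels of 10.0 CPM or less. Gm2415 overlaps Itga9 on the opposite strand, so these levels are uncertain. For Itga8 the GR-KO libraries were below in NR and, in DR, above. For both genes, the part of depth, which also reversed between NR and DR, was not tested. Neither passed the quasi-likelihood test, with adjusted p of 0.354 and 0.994, and each was kept in 4 of 8 fits that left out a library.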

How the results depend on the processing

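No paired analysis was possible because the cell table does not carry the labels' replicate numbers, that is, none by replicate number. Each group has 1 male and 1 female library, so a fit with sex as a term, which blocks on sex, was run. With it the pairs called numbered 16 for genotype in NR, 11 for genotype in DR, 61 for rearing in GR-KO and 6 for the interaction, against 7, 6, 36 and 2 without it. The quasi-likelihood test called 2 for genotype in NR, 0 for genotype in DR (39 at an unadjusted p under 0.05), 11 for rearing in GR-Con, 4 for rearing in GR-KO, 0 for the interaction (36 at an unadjusted p under 0.05) and 15 for rearing over both genotypes. DESeq2 called 2 for genotype in NR, 16 for rearing in GR-Con, 18 for rearing in GR-KO and 1 for the interaction. RLE size factors, no filter on low counts, a minimum of 30 nuclei and the fit that kept rare types, chosen after seeing the data, moved no count by over 1.5 times. Leaving out each library in turn gave 2 to 27 calls for genotype in NR (NR GR-Con male 2 and female 3, NR GR-KO male 14 and female 27), 3 to 30 for genotype in DR (30 and 29 without DR GR-Con male and female, 3 without DR GR-KO male), 14 to 55 for rearing in GR-Con (14 without either NR GR-Con library, 55 without DR GR-Con male), 9 to 69 for rearing in GR-KO (69 without NR GR-KO male, 9 and 14 without DR GR-KO male and female), 0 to 9 for the interaction (0 without DR GR-KO female, 1 without NR GR-Con male or DR GR-KO male, 4 without NR GR-KO male, 9 without NR GR-KO female or either DR GR-Con library), 2 to 10 for genotype over both conditions (10 without NR GR-KO female, 5 without DR GR-Con female) and 17 to 49 for rearing over both genotypes (17 without DR GR-KO male, 24 without NR GR-KO female, 25 without NR GR-Con female). The cause was not tested. Of the 118 pairs called, none changed sign under any setting in a fit that tested them. Of these, 70 stayed called by DESeq2 and 34 by quasi-likelihood. A left-out fit leaves 1 group with a single library, which is assumed to vary like the others. Nuclei were few in chandelier cells, at 5 to 14 a library, and in the vascular types, at 1 to 115, and uneven in microglia, at 2 to 948, and the smallest difference that could be called was not estimated.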
